A study of Mus musculus with 14 samples.

Results

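Endothelial nuclei of the mouse liver were read as group 4 of 12 numbered cell groups in a deposited table of mean RNA levels, taken by its number as 2 of the table's 24 columns: group 4 of wild type (WT) nuclei and group 4 of Ms4a7 knockout (KO) nuclei. Of 21911 genes in the table, 17457 had a level above 0 in group 4, and 3935 had a mean level of at least 0.5 over both genotypes, the limit used here for describing a gene. A level is an average of unique molecular identifiers (UMIs, a count of captured RNA molecules) on a scale on which all genes of a column sum to 10000.

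The series holds 14 samples of mouse liver. Both nuclei libraries came from mice fed a diet that induces nonalcoholic steatohepatitis (NASH, inflamed fatty liver) for 22 weeks, 1 library of WT and 1 of Ms4a7 KO mice, and each library pooled nuclei of 3 livers. The nuclei were isolated from frozen tissue and sorted after a DNA stain. The 12 bulk libraries form 4 groups of 3: WT and Ms4a7 KO mice on the NASH diet for 22 weeks, and WT mice on chow that received PBS or lipid droplets (LD) into the tail vein on 6 consecutive days. Strain, sex and age, and how the Ms4a7 allele was made, are not given in the sources used here.

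Liver sinusoidal endothelial cells line the capillaries between plates of hepatocytes. They have open pores and little basement membrane, take up waste from the blood through scavenger receptors and lectins, and make clotting factor VIII. Their gene use changes along the lobule: cells near the central vein make Wnt ligands and Rspo3 that set the zones of the hepatocytes, while cells near the portal tract use more Notch ligands and ephrins. In chronic injury they can lose pores and gain basement membrane, a change called capillarisation.

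Ms4a7, a macrophage gene of the MS4A family (mm10 chromosome 19, 11321039 to 11336146, minus strand), was read beside the labels. In nuclei its level in group 3, the group with the macrophage markers, was 1.25 in WT and 0.622 in KO nuclei, and in group 4 it was 0.00571 in WT nuclei and listed at 0 in KO nuclei. Trem2 (0.479 and 0.247) and Gpnmb (3.45 and 1.67), other macrophage genes, were lower in KO nuclei of group 3 by similar ratios. The summed macrophage markers there were higher, at 55.9 and 66.1. The Ms4a7 level in nuclei alone therefore cannot check the genotype. In bulk RNA it went against the genotype labels: the libraries labelled WT had 9.70, 25.8 and 23.3 normalized counts and those labelled KO had 102, 117 and 136 (log2 difference 2.63 ± 0.37 SE, adjusted p = 0.0149 by limma; 0.0631 without KO replicate 2 and 0.0538 without KO replicate 3). Under the PBS label it stood at 62.2, 84.7 and 163 and under the LD label at 10.5, 7.60 and 9.32 (-3.26 ± 0.39, adjusted p = 0.00428). The column header of the table labelled WT and KO also reads Untreated and Treated, so header and labels disagree. The names of both deposited bulk tables likewise point to the other experiment than the sample labels do. Whether the 2 tables were exchanged was not tested; if they were, the comparison called KO and WT here would be LD and PBS, and the reverse. The bulk groups below are therefore named as the libraries labelled WT, KO, PBS or LD, and every bulk direction is a direction between labels.

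The 6 endothelial markers that came with the group were all at their highest in group 4. Stab2, the hyaluronan scavenger receptor stabilin 2 (chromosome 10, 86841198 to 87008025, minus strand), had a level of 47.7 in WT and 61.2 in KO nuclei, which was rank 3 of all genes of the group. Ptprb, the phosphatase of endothelial junctions known as VE-PTP (chromosome 10, 116275523 to 116389535, plus strand), stood at 44.9 and 54.8. F8, clotting factor VIII (chromosome X, 75172715 to 75382615, minus strand), stood at 22.8 and 22.6, and Egfl7, a secreted factor of endothelium, at 7.62 and 9.78. Clec4g, the lectin LSECtin of sinusoidal endothelium, had levels of 3.56 and 7.76. Mecom, a zinc finger transcription factor (chromosome 3, 29951296 to 30548008, minus strand), had levels of 12.4 and 4.77. Summed, the 6 markers came to 139 in WT and 161 in KO nuclei of group 4.

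**Figure D1:**
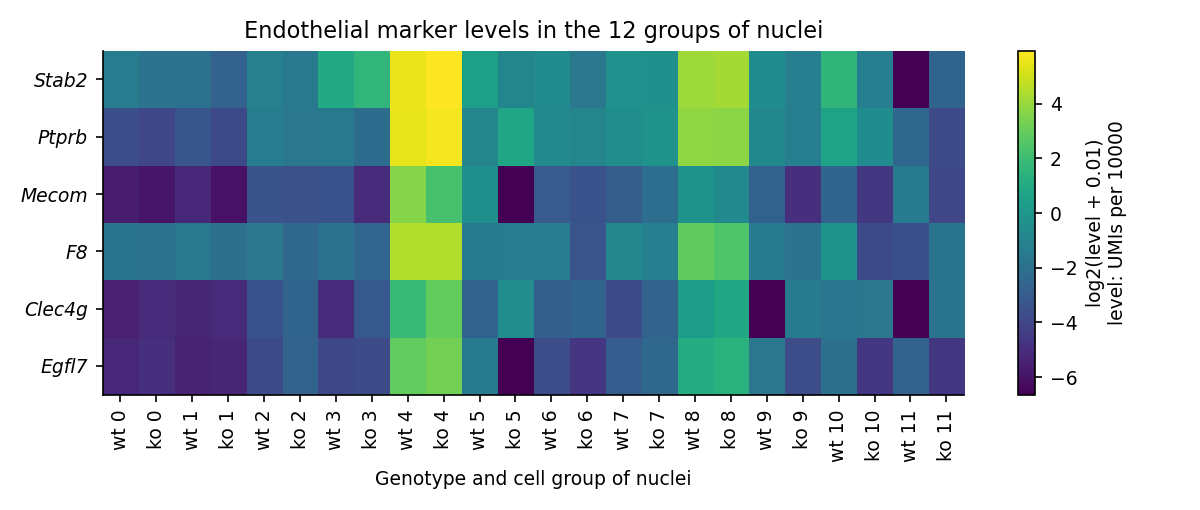
Level of the 6 endothelial markers (rows) in WT and KO nuclei of each of the 12 cell groups (columns), as log2 of the level plus 0.01. Both columns of group 4 are the brightest for each marker, group 8 comes next within each genotype, and Mecom is lower in KO than in WT nuclei of group 4.

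Group 8 carried the same markers at a lower level. It also held markers of macrophages, summing to 15.9 in WT and 19.3 in KO nuclei against 1.08 and 1.01 in group 4, and of stellate cells, at 55.0 and 61.8 against 5.40 and 4.88. Its summed endothelial markers were 42.7 in WT and 42.5 in KO nuclei. In the other 10 groups the same sum lay between 0.483 and 6.10. Across the 21911 genes the log2 level of group 4 correlated most with that of group 8 (Pearson r = 0.92), then with group 2 (r = 0.88) and group 3 (r = 0.85); these r are across genes of the same 2 libraries, and genes are not independent replicates.

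The label was set beside further genes, which describes the group and is no test, as the groups come from these same nuclei. The first list, which includes the given markers Egfl7 and Ptprb, held 20 general endothelial genes. Of these, 19 had a level of at least 0.5 in group 4, among them Adgrl4 at 13.8 in WT and 17.6 in KO nuclei, Cyyr1 at 13.3 and 13.4, Eng, a BMP co-receptor, at 9.77 and 12.1, Pecam1 at 8.71 and 7.14, which another group exceeded, and the VEGF receptors Kdr at 6.07 and 6.71 and Flt1 at 6.65 and 8.06. Sinusoidal scavenger receptors and lectins added Mrc1, the mannose receptor, at 13.1 and 17.2, Stab1 at 5.58 and 7.19, and Fcgr2b, the Fc receptor that clears immune complexes, at 5.31 and 7.48. Of this list, which also includes given markers such as Clec4g, 14 of 18 members were at the level. The lymphatic list had 3 of 9 genes at the level, namely Flt4, Nrp2 and Lyve1. The liver endothelial transcription factor Gata4 stood at 9.05 and 8.85 and Maf at 11.5 and 13.2, while Vwf, which marks larger vessels, was at 0.908 and 0.546.

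Markers of other cell types were low in group 4 except for hepatocyte RNA. The 12 hepatocyte markers summed to 26.4 in WT and 54.3 in KO nuclei, with none at 0. Macrophage markers had 1 of 12 at 0 in each genotype. T and NK cell markers summed to 0.545 and 0.376, with 5 of 12 at 0 in WT and 3 at 0 in KO nuclei. B and plasma cell markers summed to 0.985 and 0.664, neutrophil markers to 0.217 and 0.112, cholangiocyte markers to 1.87 and 0.606 and mesothelial markers to 1.04 and 0.360, with 5 of 8 mesothelial markers at 0 in each genotype and the sum mostly Gpm6a. The stellate list was mostly Hgf (3.88 and 3.66), which liver endothelium also makes, and the dendritic cell list, at 7.63 and 8.55, was mostly Zbtb46 (4.72 and 5.02).

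A gene was called leading where its mean level in group 4 was at least 0.5 and at least 4 times that of the highest other group. This held for 16 genes, and in all 16 the highest other group was group 8, which had between 0.0874 and 0.245 of group 4's level. As the groups come from the expression of these same nuclei, the ratios describe the group and are no test. Mecom led with 11.3 times the level of group 8, followed by D5Ertd615e (5.11 times), Vwf (5.04 times), Gm12648 (4.84 times) and Cyp26b1, the enzyme that breaks down retinoic acid (4.61 times). The list also held Nos3, the endothelial nitric oxide synthase (4.21 times), the transcription factor Sox17 (4.12 times), the junction proteins Jam2 (4.15 times) and Pcdh17 (4.17 times), the tetraspanin Tspan7 (4.17 times), Ccm2l (4.19 times), Clec14a, a lectin-like protein of vessel sprouting (4.05 times), and the transmembrane collagen Col13a1 (4.09 times). Klhl4, Hyal2 and Armcx4 completed it. Just inside the limit stood Clec14a, and just outside it Gpihbp1 at 3.98 times, Efnb2 at 3.97 times and Tpbgl at 3.96 times the highest other group. Of the given markers other than Mecom, Clec4g stood at 3.68, Egfl7 at 3.64, Ptprb at 3.61, F8 at 3.53 and Stab2 at 3.06 times the level of group 8.

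With group 8 set aside, a choice made after the values were seen, 119 genes led, all with group 8 as the next highest. Group 8 had a median of 0.294 of group 4's level in them (range 0.0874 to 0.433), and Mecom had the lowest share. Gm46565 then stood 65.1 times above the highest of the other 10 groups, Adgrf5, an adhesion receptor, 46.7 times, F8 45.9 times, Egfl7 43.9 times, Ptprb 43.6 times, Oit3 42.6 times, Cdh13 (T-cadherin) 39.9 times, Erg, an ETS transcription factor, 37.1 times, and Stab2 21.1 times.

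The promoters below are shown for Stab2, the marker with the highest level, for Mecom, the gene with the largest ratio to the other groups, and for Cyp26b1 and Vegfc, an endothelium-enriched gene higher and a growth factor gene lower in KO nuclei. Each runs from 250 bases before to 50 after an annotated start, 5′ to 3′ on the gene's strand, from RefSeq on GRCm38.p6. Capitals mark AGGAAG or ACAGGAA on either strand, letters of the kind that ETS factors such as Erg bind.
Stab2, chr10:87007893-87008192, minus strand: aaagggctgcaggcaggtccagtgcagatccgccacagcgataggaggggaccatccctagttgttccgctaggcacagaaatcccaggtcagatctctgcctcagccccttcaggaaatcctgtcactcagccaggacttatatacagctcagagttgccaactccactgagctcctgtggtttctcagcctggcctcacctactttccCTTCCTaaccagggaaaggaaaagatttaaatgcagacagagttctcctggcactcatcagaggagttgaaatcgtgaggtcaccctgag
Mecom, upstream start, chr3:30509710-30510009, minus strand: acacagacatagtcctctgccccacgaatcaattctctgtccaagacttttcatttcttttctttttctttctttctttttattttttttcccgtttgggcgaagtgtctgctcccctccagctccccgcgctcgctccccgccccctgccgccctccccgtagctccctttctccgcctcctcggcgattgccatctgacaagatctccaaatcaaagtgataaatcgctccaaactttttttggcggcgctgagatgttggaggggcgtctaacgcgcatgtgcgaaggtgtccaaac
Mecom, downstream start, chr3:30013155-30013454, minus strand: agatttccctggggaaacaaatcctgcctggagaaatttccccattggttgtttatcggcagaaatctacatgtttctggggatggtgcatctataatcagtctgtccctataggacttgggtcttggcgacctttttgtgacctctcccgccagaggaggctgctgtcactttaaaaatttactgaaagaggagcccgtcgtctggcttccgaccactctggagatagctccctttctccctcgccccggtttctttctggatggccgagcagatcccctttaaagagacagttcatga
Cyp26b1, chr6:84593761-84594060, minus strand: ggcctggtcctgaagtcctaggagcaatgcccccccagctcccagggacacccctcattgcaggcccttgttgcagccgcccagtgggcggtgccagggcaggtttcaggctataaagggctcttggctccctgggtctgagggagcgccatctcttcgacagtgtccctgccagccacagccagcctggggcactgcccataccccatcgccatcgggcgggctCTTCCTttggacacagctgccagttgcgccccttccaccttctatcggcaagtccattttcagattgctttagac
Vegfc, chr8:54077282-54077581, plus strand: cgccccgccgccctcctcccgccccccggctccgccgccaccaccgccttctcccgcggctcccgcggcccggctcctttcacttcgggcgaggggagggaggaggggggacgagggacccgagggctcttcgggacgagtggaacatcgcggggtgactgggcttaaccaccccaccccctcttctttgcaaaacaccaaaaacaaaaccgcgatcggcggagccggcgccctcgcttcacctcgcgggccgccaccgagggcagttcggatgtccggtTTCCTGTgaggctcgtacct

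Stab2, Cyp26b1 and Vegfc each held 1 match and neither Mecom start held one. RefSeq promoters were found for 81 of the 119 genes that led with group 8 set aside, 102 promoters in all, of which 17 (16.7%) held ACAGGAA against 8.67% of all 32851 promoters. AGGAAG stood in 43 of them (42.2% against 35.4%), and the 2 motifs can overlap. CCGGAAG, another ETS-type motif, stood in 0 of the 102 and in 8.86% of all promoters. AGATAA, of the GATA type, was in 10.8% against 11.2%, and CACCC, of the KLF type, in 67.6% against 57.5%. These 5 motifs were searched on both strands, a match is only a match of letters, and some genes have several promoters.

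KO nuclei of group 4 were then set beside WT nuclei, to describe what differs in endothelial nuclei of the library labelled Ms4a7 KO. Most endothelial genes differed little: 17 of 19 general endothelial genes at the level were higher in KO nuclei, with a median log2 ratio of 0.15 and none 2-fold apart. Over the 3935 genes at the level the median log2 ratio of KO to WT was -0.03 and 45.9% were higher in KO nuclei. A 2-fold difference separated 66 genes that were higher (1.68%) and 52 that were lower (1.32%) in KO nuclei. Each genotype is 1 library, so none of these differences could be tested.

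**Figure D2:**
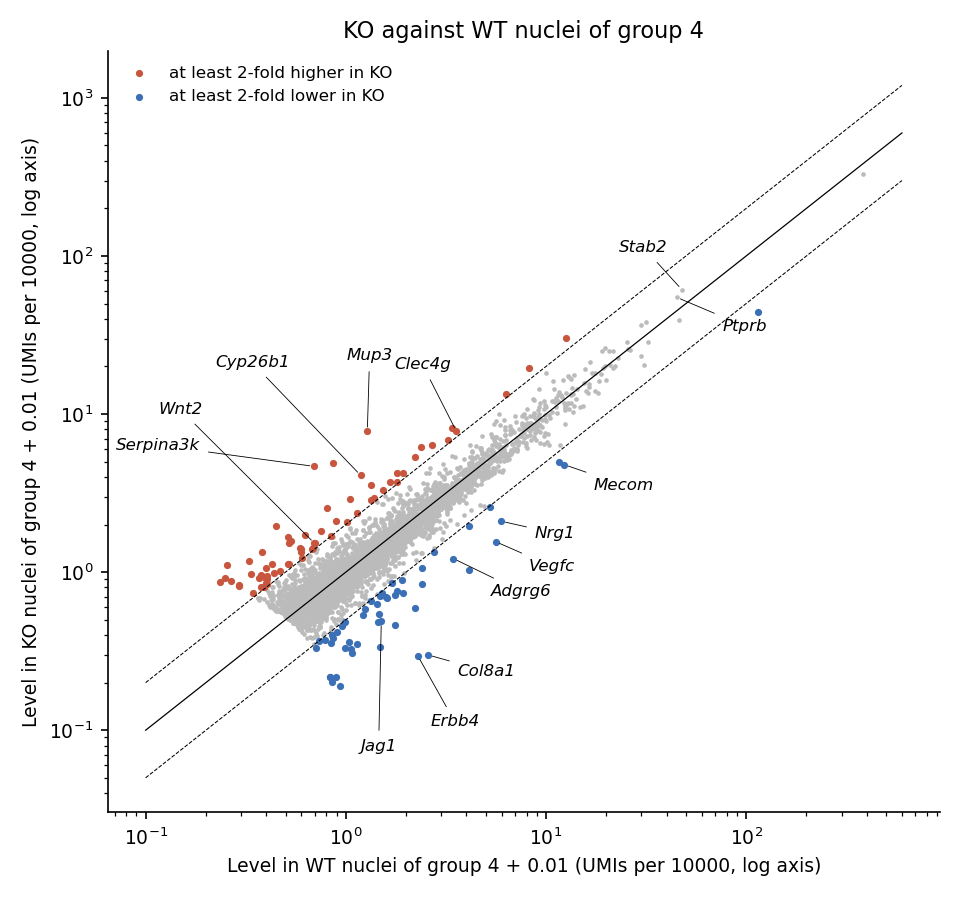
Level in WT nuclei (x) against KO nuclei (y) of group 4 for the 3935 genes with a mean of at least 0.5, both with 0.01 added and on log axes; the solid line marks equal levels and the dashed lines 2-fold. Coloured points are the 66 genes at least 2-fold higher and the 52 at least 2-fold lower in KO nuclei, among them Mecom, Vegfc, Nrg1 and Jag1 on the lower side.

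Vegfc, Nrg1, Jag1 and Mecom were lower in KO nuclei. Vegfc, the ligand of the VEGF receptor Flt4 (chromosome 8, 54077606 to 54187096, plus strand), went from 5.60 in WT to 1.55 in KO nuclei, a log2 ratio of -1.85. In the 3 other groups at the level its log2 ratios lay between -0.23 and 0.05. Averaged over both genotypes, Vegfc stood at 3.57 in group 4 and at 7.73 in group 2. VEGF receptors differed less, with log2 ratios of -0.11 for Flt4, 0.14 for Kdr and 0.35 for the co-receptor Nrp2. Nrg1, the neuregulin ligand of ERBB receptors, went from 5.98 to 2.09 (log2 ratio -1.51), and was lower in all 4 other groups at the level, with a median log2 ratio of -2.45. Jag1, a Notch ligand (chromosome 2, 137081456 to 137116644, minus strand), went from 1.49 to 0.478 (log2 ratio -1.63), while the ligand Dll4 stood at 1.18 and 1.08 and the receptors Notch1 at 1.87 and 2.03 and Notch4 at 0.652 and 0.737. Averaged likewise, Jag1 stood at 0.986 in group 4 and at 2.54 in group 7. Mecom differed by a log2 ratio of -1.37 in group 4 and of -0.38 in group 8.

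Col8a1, a short-chain collagen of vessel walls, had the largest difference downwards (2.57 in WT and 0.289 in KO nuclei, log2 ratio -3.11), and was also lower in both other groups that used it, by log2 ratios of -0.99 and -1.45. The guidance ligand Slit3 went from 0.931 to 0.180 (log2 ratio -2.30), Xylt1, which starts proteoglycan chains, from 1.47 to 0.324 (-2.14), Fbln2 from 0.823 to 0.206 (-1.95) and Sulf1, a heparan sulfatase, from 1.06 to 0.298 (-1.80). Thsd7a, a thrombospondin-domain protein of endothelium, went from 4.11 to 1.02 (log2 ratio -2.00), with log2 ratios between -0.68 and -0.07 in the 3 other groups at the level. Megf6, Nuak1, Rbms3, Dnm3 and Slc45a4 were lower by log2 ratios between -2.07 and -1.69.

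Some of the lower genes were lower in nearly all groups. Erbb4, a receptor of neuregulins, had a log2 ratio of -2.95 in group 4 (2.28 to 0.286), and it was lower in KO nuclei of all 11 other groups, with a median log2 ratio of -2.56. Rad51b, a DNA repair gene, was lower in group 4 (log2 ratio -1.93) and in 10 of 11 other groups (median -1.91). Pkhd1, a bile duct gene at 0.824 and 0.207, was lower in all 8 other groups at the level. The cholangiocyte marker sum above, which includes Pkhd1 itself, was lower in KO nuclei of group 4, as was the mesothelial sum, mostly Gpm6a. The part of bile duct and mesothelial RNA in these differences was not tested.

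Several of the 15 genes with the largest differences upwards encode hepatocyte proteins. Serpina3k (log2 ratio 2.75 in group 4), Mup3 (2.61) and Serpina1c (2.50), products that hepatocytes secrete, were higher in KO nuclei of all 11 other groups, with median log2 ratios of 2.80, 2.57 and 2.54 there. Cyp2d9 (1.85), Hamp (1.72), Apoh (1.55) and Sult2a8 (1.54) are hepatocyte genes too. The summed hepatocyte markers were 2.05 times higher in KO nuclei of group 4 and between 1.35 and 2.48 times higher in the other 11 groups. Reads of Serpina3k, Mup3, Serpina1c, Cyp2d9, Sult2a8 and H2-Q7 can be split among near-identical family members, so their levels are uncertain. The part of hepatocyte RNA in the higher genes was not tested.

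**Figure D3:**
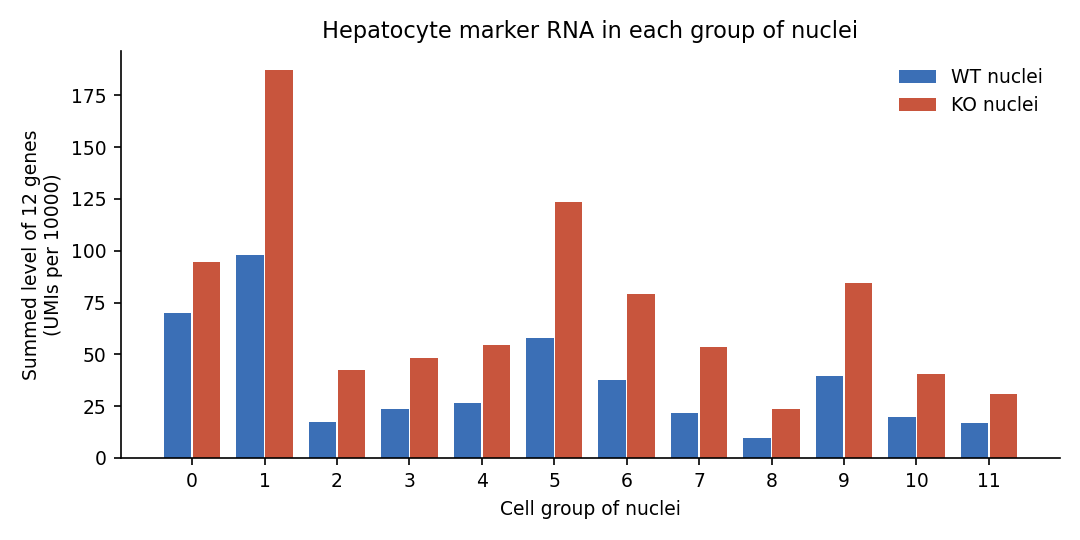
Summed level of 12 hepatocyte marker genes (y, UMIs per 10000, from 0) in WT and KO nuclei of each cell group (x). The sum is higher in KO nuclei of all 12 groups, 26.4 against 54.3 in group 4.

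Other genes were higher in KO nuclei of group 4 as well. Cyp26b1 (chromosome 6, 84571414 to 84593908, minus strand) went from 1.18 to 4.09 (log2 ratio 1.79), and in group 8, the other group that used it, its log2 ratio was 1.32. Id3, an inhibitor of helix-loop-helix factors and a target of BMP signals, went from 0.504 to 1.65 (log2 ratio 1.69) and was higher in all 6 other groups at the level. The BMP ligands Bmp2 (2.59 and 4.21) and Bmp6 (4.74 and 6.13), by which liver endothelium sets hepcidin in hepatocytes, had log2 ratios of 0.70 and 0.37, and Smad7, a feedback inhibitor, 0.45. Adam12, a metalloprotease, went from 0.796 to 2.54 (log2 ratio 1.66), with log2 ratios of -0.61 and 0.01 in the 2 other groups at the level. Sema3d, a semaphorin, had a log2 ratio of 1.52, and Mctp1, a calcium-binding membrane protein, 2.13. Slc15a2, a peptide transporter, had 2.13 and was higher in all 6 other groups at the level, with a median log2 ratio of 2.16. Hsph1, a heat shock protein, had 1.87 and was higher in all 8 other groups at the level, and the antigen presentation gene H2-Q7 had 1.56.

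How far these differences were shared with other groups was counted, a count added after the values were seen. Of the 66 higher genes, 58 had a level of at least 0.5 in another group, and in 34 the median log2 ratio of those groups was also 2-fold or more upwards, which left 32, among them those with no other group at the level. Of the 52 lower genes, 50 had such a level elsewhere and 9 were 2-fold lower in the median of the other groups, which left 43. The 32 included Clec4g, Wnt2 and Col13a1, and the 43 included Mecom, Vegfc, Jag1 and Ednrb, the endothelin B receptor (1.58 and 0.691), which was higher in KO nuclei of both other groups at the level. These examples were chosen after their values were seen. Among the 15 genes named for the largest differences each way, 13 of the lower and 14 of the higher had a higher level in another group.

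Lists of genes with a place along the lobule differed in sign in group 4. Of 12 portal zone genes at the level 9 were lower in KO nuclei (median log2 ratio -0.31, against -0.03 over all 3935 genes), 2 of them by 2-fold: Jag1, and Adgrg6, an adhesion receptor, which went from 3.44 to 1.21 (log2 ratio -1.50) and had a median log2 ratio of -1.18 in the 3 other groups at the level. Efnb1 stood at 1.61 and 0.949, the netrin Ntn4 at 9.74 and 7.26, Efnb2 at 3.15 and 2.56 and the fatty acid transporter Cd36 at 7.99 and 6.12. Sox17, Ltbp4 and Adam23 were the 3 that were higher. Of 7 central zone genes 6 were higher (median 0.48): Wnt2, the Wnt ligand of central sinusoids (chromosome 6, 17988940 to 18030585, minus strand), went from 0.686 to 1.52 (log2 ratio 1.13), Kit from 1.89 to 2.79, Cdh13 from 7.69 to 9.92, and Rspo3 from 0.737 to 0.919. The summed portal list was 0.827 and the summed central list 1.30 times as high in KO as in WT nuclei. Both differences stood in most other groups as well: the portal sum was lower in KO nuclei of 10 of the 11 other groups (ratios from 0.276 to 1.14) and the central sum higher in 9 of 11 (0.676 to 2.37), with 0.729 and 1.27 in group 8.

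Scavenger receptors and lectins, given markers among them, were higher in 10 of 14 cases, with a median log2 ratio of 0.38. Clec4g was the only one 2-fold higher (log2 ratio 1.12); the nuclease Dnase1l3 stood at 5.83 and 9.97, Gpr182 at 1.91 and 2.67 and Fcgr2b at 5.31 and 7.48. Antigen presentation and interferon genes were higher in 9 of 9 (median 0.44), with H2-D1 at 1.91 and 4.21, H2-K1 at 4.78 and 7.23, and B2m at 3.51 and 5.31. H2-D1 was also higher in KO nuclei of all 9 other groups that used it, with a median log2 ratio of 0.91. All 7 capillarisation and vein genes at the level were lower, with a median of -0.20 and none by 2-fold; Vwf had the largest log2 ratio, -0.72, and Plvap, the diaphragm protein of endothelial pores, stood at 0.899 and 0.668. Of 14 basement membrane and matrix genes 10 were lower (median -0.15), with Fbn1 at 1.67 and 0.919 (log2 ratio -0.86) and a log2 ratio of -0.67 for Fn1, fibronectin.

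**Figure D4:**
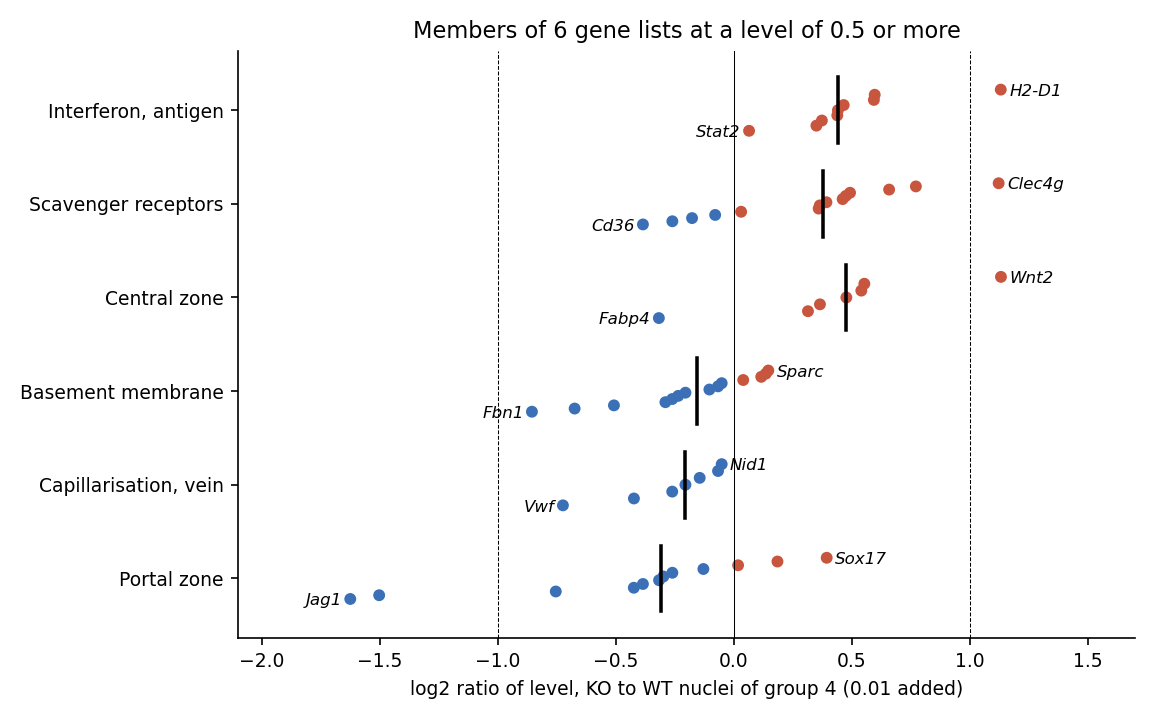
log2 ratio of the level in KO to WT nuclei of group 4 (x) for the members of 6 gene lists at a level of at least 0.5; each point is a gene, the black bar is the list's median and the dashed lines mark 2-fold. Medians are below 0 for portal zone (-0.31), capillarisation (-0.20) and basement membrane genes (-0.15) and above 0 for central zone (0.48), scavenger receptor (0.38) and interferon genes (0.44).

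Medians of the other lists lay between -0.34 and 0.29, leaving aside the short cell cycle and stress lists and the RNA quality lists. The 8 VEGF genes had a median of 0.09, the 9 Notch genes -0.13, the 14 BMP and TGF-beta genes 0.20, the 8 Wnt and angiocrine ligands 0.29, the 6 angiopoietin, TIE and S1P genes 0.25, the 24 endothelial transcription factors 0.05, of which only Mecom was 2-fold apart, the 4 coagulation genes 0.02, the 13 nitric oxide, caveolae and junction genes -0.08, the 11 adhesion genes -0.09, the 10 mechanosensing genes -0.07 and the 3 lymphatic genes -0.11. Of 10 lipid handling genes 7 were lower (median -0.34), with the regulator Pparg at 1.29 and 0.655 and the exporter Abca1 at 3.95 and 3.04. Few cell cycle genes (1 of 16) and stress genes (2 of 16) reached the level; these were Cdk6 at 1.43 and 0.623, and Dusp1 at 0.650 and 0.902 with Hspa8 at 0.590 and 1.33. The mitochondrially encoded genes, a sign of cytoplasmic RNA, summed to 151 in WT and 185 in KO nuclei, and the nuclear RNAs to 517 and 393. In the latter sum Malat1 stood at 383 and 332 and Gm42418, the gene of rank 2 in the group, at 115 and 44.0, lower in KO nuclei of all 11 other groups as well; the part of these in the differences was not tested.

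Whole liver RNA gave the replicated measurement of the same genes. In such RNA, fewer cells of a type and less RNA per cell cannot be told apart. Of 15827 genes tested between the libraries labelled KO and WT, limma called 478 higher (3.02%) and 111 lower (0.701%) at an adjusted p of 0.05, and of 14900 tested between those labelled LD and PBS it called 290 higher (1.95%) and 330 lower (2.21%). These counts moved with single libraries, to 124 without KO replicate 2 and 134 without PBS replicate 2. None of the 16 leading genes was called in either: 12 were tested between KO and WT, with 1 at an unadjusted p under 0.05, and 14 between LD and PBS, with 2. edgeR called 0 of them in both.

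None of the given markers passed the test in bulk RNA. For Stab2 the WT label held 589, 665 and 747 normalized counts and the KO label 625, 689 and 935, so the groups overlapped (log2 difference 0.15 ± 0.17 SE, adjusted p = 0.69). It was 1933, 1983 and 1940 in the libraries labelled PBS and 1889, 2029 and 1931 in those labelled LD (log2 difference -0.00 ± 0.08 SE, adjusted p = 0.99). Ptprb, F8, Clec4g and Egfl7 overlapped likewise in both comparisons, with log2 differences between -0.18 and 0.31. Mecom was too low to test between KO and WT, at 9.23 ± 5.57 and 10.2 ± 5.30 normalized counts (SD, n = 3), and stood at 26.6 ± 12.1 and 19.4 ± 5.25 in PBS and LD (adjusted p = 0.67 by limma). Limma and edgeR called 0 of the 6 markers in either comparison, with 1 of 5 tested (Egfl7) and 0 of 6 at an unadjusted p under 0.05. Over all genes tested limma called 3.02% higher and 0.701% lower between KO and WT. Between LD and PBS it called 1.95% higher and 2.21% lower. In so few genes 0 calls lies near these shares.

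Of the 119 genes that led with group 8 set aside, 104 were tested between KO and WT and 110 between LD and PBS. The median log2 difference was 0.18 in the first and -0.11 in the second, against -0.02 and 0.00 over all genes tested. Limma called 0 higher and 1 lower in the first, Ppfia2 (log2 difference -1.07 ± 0.18 SE, adjusted p = 0.022), and 0 higher and 2 lower in the second, Efnb2 and Plk2 (-1.07 ± 0.14, adjusted p = 0.0054); Ppfia2 and Plk2 were named after their values were seen. Over all genes tested limma called 3.02% higher and 0.701% lower in the first and 1.95% higher and 2.21% lower in the second. The lower calls lie near these shares. The count in the first fell to 0 without WT replicate 1, WT replicate 3, KO replicate 1 or KO replicate 2 and was 2 by edgeR and 3 with a replicate block, and that in the second was 1 without any library but LD replicate 3, without which it was 3. The 3 libraries of one label all lay above the 3 of the other for 11 of the 104 upwards (10.6%, against 12.4% of all genes tested) and 2 downwards (1.92%, against 11.7%). Between LD and PBS this held for 5 of the 110 upwards (4.55%, against 12.6%) and 20 downwards (18.2%, against 12.8%).

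Among the 187 pathway list members at the level in group 4, 183 were tested between the libraries labelled KO and WT, and limma called 9 higher (4.92%, against 3.02% of all genes tested) and 1 lower (0.546%, against 0.701%). Icam1, a receptor for leukocytes, had normalized counts of 160, 218 and 200 under the WT label and of 745, 989 and 978 under the KO label (log2 difference 2.22 ± 0.16 SE, adjusted p = 0.0020). All 3 of the latter lay above all 3 of the former, and the call held without each library in turn, as it did for Nfkbia (0.89 ± 0.11, adjusted p = 0.010). Cdh5, the cadherin of endothelial junctions, was 196, 373 and 457 against 678, 1116 and 1240 (1.60 ± 0.34, adjusted p = 0.047), and its call was lost without any 1 of 5 libraries, at adjusted p from 0.054 without WT replicate 3 to 0.14 without KO replicate 3; it held only without KO replicate 1. Tgfb1 (1.66), Tfec (2.02), Heg1 (0.91), Ppard (0.68), Irf1 (0.59, lost also with a replicate block) and, downwards, Pparg (-0.96) passed at adjusted p between 0.026 and 0.045, and each call was lost without at least 4 of the 6 libraries. Many of these genes are used by other liver cells as well, and macrophage markers rose beside them: 7 of 10 tested were called higher, with a median log2 difference of 2.20. Their part in these calls was not tested.

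Between the libraries labelled LD and PBS 175 of the 187 were tested and limma called 2 higher (1.14%, against 1.95% of all genes tested) and 15 lower (8.57%, against 2.21%). Nid1, the basement membrane linker nidogen 1, had normalized counts of 2309, 2569 and 2827 under the PBS label and of 1145, 1194 and 1176 under the LD label (log2 difference -1.13 ± 0.09 SE, adjusted p = 0.0016). Timp3, an inhibitor of matrix proteases, was 1344, 1322 and 1325 against 829, 805 and 806 (-0.71 ± 0.08, adjusted p = 0.0038), and the matrix protein Sparc differed by -0.73 ± 0.08 (adjusted p = 0.0037). The 3 calls held without each library in turn. Adamts9 (-1.20), Fbn1 (-0.82), Tead1 (-0.67), Icam1 (-0.60) and Ets2 (-0.53) were lower too, and Spns2 (0.49) and Igf1 (0.37) were higher, at adjusted p between 0.025 and 0.048, each lost without at least 4 of the 6 libraries. The Igf1 call was also lost without the filter, with edgeR and with a replicate block. Of the 24 basement membrane and matrix genes tested, 8 were called lower and 0 higher, with a median log2 difference of -0.42. In 18 of the 24 all LD libraries lay below all PBS libraries, against 12.8% of all genes tested. Efnb2, the portal ephrin, was 119, 154 and 134 against 68.2, 77.0 and 59.0 (-0.99 ± 0.20, adjusted p = 0.029), a call that held only without LD replicate 3 and reached adjusted p = 0.14 without PBS replicate 2. Among the 14 portal zone genes 3 were called lower and none higher (median -0.44). The groups were apart downwards in 8 of these 14, against 12.8% of all genes tested. Among 11 central zone genes limma called 0 and edgeR 0, with 0 at an unadjusted p under 0.05 (median -0.06). Beside them, 4 of 12 stellate, 5 of 10 cholangiocyte and 4 of 12 macrophage markers tested were called lower, 1 macrophage marker was called higher, and 7 of 16 cell cycle genes were called lower; their part in these calls was not tested.

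**Figure D5:**
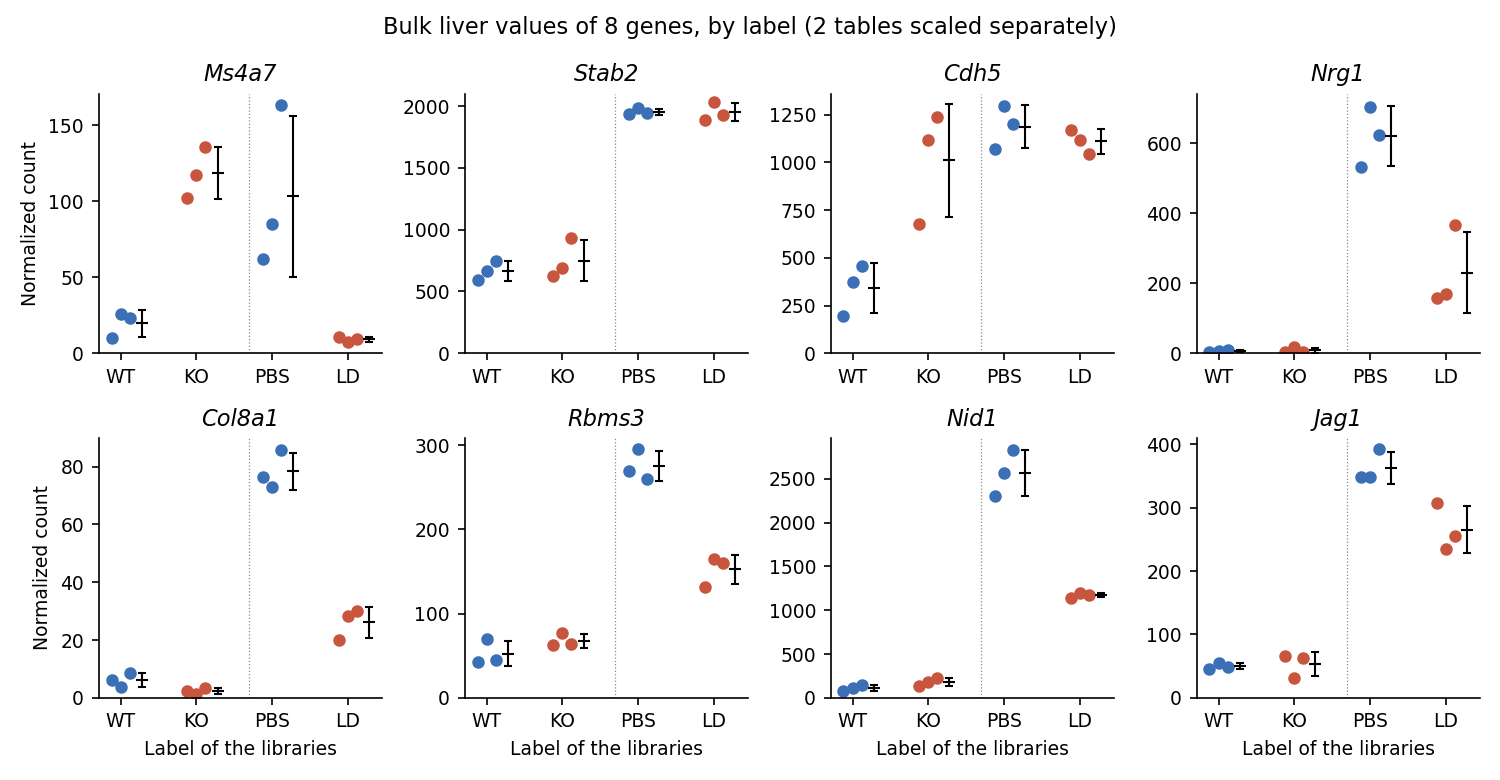
Normalized counts (y, from 0) of 8 genes in each bulk library (points, 3 per label) with the mean and SD beside them; the tables left and right of the dotted line were scaled separately and levels are not compared across it. Ms4a7 is higher in the libraries labelled KO and lower in those labelled LD, Stab2 overlaps in both, and Nrg1, Col8a1, Rbms3, Nid1 and Jag1 are lower in all 3 LD libraries than in all 3 PBS libraries.

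The genes that differed 2-fold between KO and WT nuclei of group 4 were read in both bulk comparisons, which share no library with the nuclei. Of the 52 that were lower in KO nuclei, 44 were tested between the libraries labelled LD and PBS, and 42 of them were lower in LD (median log2 difference -0.35), where 53.4% of the genes at the level were. Between the libraries labelled KO and WT 13 of 38 tested were lower (median 0.10), where 49.3% of the genes at the level were. Of the 66 higher in KO nuclei, 47 of 62 were higher in LD (46.6% of the genes at the level were) and 30 of 60 in the libraries labelled KO (50.7%). Between LD and PBS limma called 5 of the 44 lower genes lower and 8 of the 62 higher genes higher, and none the opposite way. Of the 3839 genes at the level that were tested there, limma called 70 lower and 40 higher. Between KO and WT limma called 4 of the 38 lower genes, all of them higher, namely Cd9, Flna, Itm2c and Slc8a1. It called 2 of the 60 higher genes higher, namely Camk1 and Ust. These 6 were named after their values were seen. Of the 3842 genes at the level that were tested between KO and WT, limma called 97 higher and 22 lower.

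Nrg1, lower by a log2 ratio of -1.51 in KO nuclei of group 4, had normalized counts of 533, 705 and 625 under the PBS label and of 158, 168 and 365 under the LD label (log2 difference -1.53 ± 0.29 SE, adjusted p = 0.023). All 3 LD libraries lay below all 3 PBS libraries, with LD replicate 3 the nearest; the call was lost without PBS replicate 2 (adjusted p = 0.11), PBS replicate 3 (0.088), LD replicate 1 (0.074) or LD replicate 2 (0.076). Col8a1 was 76.2, 73.0 and 85.6 against 19.9, 28.2 and 30.02 (-1.57 ± 0.26, adjusted p = 0.015), lost without PBS replicate 2 (0.072) or 3 (0.080). Rbms3 was 270, 296 and 260 against 132, 165 and 160 (-0.85 ± 0.15, adjusted p = 0.017), lost without PBS replicate 2 (0.092), PBS replicate 3 (0.060) or LD replicate 1 (0.058). In nuclei, averaged over both genotypes, Rbms3 stood at 1.39 in group 4 against 56.5 in group 2 and 31.6 in group 8. Which cells its bulk value reflects was not tested. Jag1 was 348, 349 and 392 against 306, 234 and 255, apart but not past the test (-0.46 ± 0.14, adjusted p = 0.11). Vegfc, by contrast, overlapped: it was 134, 146 and 137 against 122, 152 and 126 (-0.07 ± 0.16, adjusted p = 0.87). Megf6, Nuak1, Fbln2, Sulf1, Dnm3 and Slc45a4 overlapped as well, with log2 differences between -0.61 and -0.03. Slit3 and Xylt1 were too low to test. Rad51b was called lower (-1.32), and Erbb4, Thsd7a and Pkhd1 were apart downwards without a call.

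Between the libraries labelled KO and WT the same genes took other values. Nrg1 was too low to test there, at 6.23 ± 3.69 in WT and 8.69 ± 6.80 in KO (SD, n = 3), and so was Col8a1, at 6.17 ± 2.35 and 2.37 ± 1.14. Rbms3 differed by 0.39 ± 0.25 (SE, adjusted p = 0.46 by limma) and Jag1 by 0.03 ± 0.31 (adjusted p = 0.98). Of the genes that were higher in nearly all groups of KO nuclei, Serpina3k was 109154, 99599 and 121299 in the libraries labelled PBS and 380219, 365188 and 214603 in those labelled LD (log2 difference 1.5 ± 0.22, adjusted p = 0.0089; 0.060 without PBS replicate 2), and between KO and WT it differed by -0.75 ± 0.22 (adjusted p = 0.12). Slc15a2 was 76.2, 60.4 and 60.1 in PBS against 326, 222 and 188 in LD (1.86 ± 0.23, adjusted p = 0.0047), a call that held without each library in turn. Mup3, Cyp2d9 and Sult2a8 were called higher in LD too. Other genes higher in KO nuclei of group 4 were not. Adam12 (-0.79) and Id3 (-0.38) were lower in LD, neither called, and Cyp26b1 (0.24), Hamp (0.17) and Hsph1 (0.17) overlapped.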

How the data were processed

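The submitters' processing notes name FastQC, STAR, DESeq2, Cell Ranger, Seurat 4.0.1 and build mm10; annotation, read counter, nuclei per group and doublet handling are not given in the sources used here. The deposited nuclei signal is the authors' mean UMI value per gene, group and genotype; 4 entries whose name was repeated were dropped, and 0.01 was added before ratios. The deposited bulk signal was gene counts over a library factor: 100% of values were multiples of a step (tolerance 0.01), giving 21945394 to 23126164 reads (WT, KO) and 39318264 to 41346464 (PBS, LD). Nuclei depth is unknown, so levels carry no interval, and 1 library per genotype allows no test.

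Bulk genes at 10 or more in at least 3 of 6 libraries were tested with limma 3.58.1 (R 4.3.3; moderated with a mean trend, 2-sided, pseudocount 1, Benjamini-Hochberg over all tested genes, threshold 0.05), a procedure tested on simulated data. Labels do not say that replicates are separate animals, so p-values may measure technical spread only. Alternatives were another pseudocount, no filter, each library left out, a replicate block, edgeR 4.0.16 on whole reads, and other limits for the nuclei.

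Genes named were the markers, Ms4a7, up to 30 leading genes, the 15 largest KO to WT ratios each way (no Gm, Rik or mitochondrial models), 2 to 6 members per list, and called bulk list members, at most 10 each way; the bulk naming was limited to genes at 0.5 in group 4 after values were seen, and other names were chosen after their values were seen. The group, 24 pathway and 9 marker lists were chosen with earlier results of these data known. Positions are from GENCODE (mm10). 1 called bulk list member is not reported here.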

Additional observations from a re-analysis of the deposited data

Results flagged for a closer look

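Among the 30 genes with the largest differences between KO and WT nuclei of group 4, 3 differed by 2-fold or more the opposite way in another group in which they had a level of at least 0.5. With 1 library per genotype none of these differences between groups was tested. Fbln2, a matrix glycoprotein gene, was lower in KO nuclei of group 4 by a log2 ratio of -1.95 and higher in group 11 by a log2 ratio of 3.20, at levels there of 0.131 in WT and 1.28 in KO nuclei. Rbms3, an RNA-binding protein gene, was lower in group 4 by a log2 ratio of -1.91 and higher in group 5 by 1.02, with levels there of 0.476 and 0.978. Mctp1 was higher in group 4 by a log2 ratio of 2.13 and lower in group 3 by a log2 ratio of -1.05 and in group 11 by a log2 ratio of -1.39. Groups 5 and 11 had the widest spread of log2 ratios over genes at the level, with SDs of 1.99 and 0.867 against 0.397 in group 4.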

How the results depend on the processing

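The 16 leading genes became 209 at a ratio of 2, 30 at a level of 0.1, 3 with 0.1 added, 32 from KO columns alone and, chosen after seeing the data, 119 with group 8 set aside. At a level of 0.1 the genes 2-fold higher and lower in KO nuclei were 390 and 222. Leaving out genes 2-fold apart the same way in the median of the other groups, also chosen after seeing the data, left 32 of the 66 higher and 43 of the 52 lower; the other scalings stayed within 1.5 times. Leaving out 1 library, bulk calls ranged from 124 (without KO replicate 2) to 530 of 589 between KO and WT, and from 134 (without PBS replicate 2) to 1226 (without LD replicate 3) against 620 between LD and PBS. Leading genes called stayed at 0 in the first and ranged from 0 to 1 in the second, with 1 without LD replicate 3. These fits used fewer libraries; the cause of the other moves was not tested. Same-numbered libraries deviated together little (r from -0.04 to 0.13), which cannot decide whether the numbers pair libraries. A replicate block gave 822 calls against 589 between KO and WT and 793 against 620 between LD and PBS. With it 1 leading gene, Armcx4, was called between KO and WT. Of 22 named bulk calls, 5 held in every alternative run and 0 reversed. Nuclei depth is unknown, which leaves low levels least certain.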
